A study of Capra hircus with 11 samples.

Results

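The distal miRNAs of the imprinted DLK1-DIO3 region, known in mice and humans as the miR-379/410 cluster, were followed in the omental fat of lactating goats with and without feed. Members were picked by name, under a rule set with earlier results of these data known. A listed miRNA belonged to the group when its number was one of the 40 that the cluster and its distal neighbours carry, with any letter or arm. Of 637 miRNAs listed, 52 were members. They carried 36 of the 40 numbers, and miR-300, miR-889, miR-3958 and miR-3959 had no entry. All 52 were listed in every library, and 29 of them had enough reads to be tested among the 360 miRNAs tested in all.

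Each of the 11 libraries came from omental adipose tissue of 1 Alpine goat near the peak of lactation, 48 ± 2 days after kidding when the experiment began. All goats had eaten orchardgrass hay and concentrate in a 35:65 ratio for 2 weeks. In the last 48 h before slaughter, 5 control goats kept the diet with free access and 6 goats were deprived of food. Replicate numbers only name goats within a group. Small RNA was sequenced, and the deposited value of a miRNA is its read count divided by 1 factor per library, called normalised reads here. The libraries held 16974441 to 25389788 miRNA reads, and the list of feed-deprived goat 1 had 629 miRNAs in place of 637, with every member present. The 5 miRNAs taken as typical of fat, miR-143, miR-26a, miR-30a-5p, miR-22-3p and miR-148a, summed to 6408700 normalised reads or more in every goat. The liver miRNA miR-122 stayed at 146.7 or fewer, and of the neural list miR-124a, miR-124b, miR-137, miR-219 and miR-9-3p at 8.62 or fewer. miR-128, also on the neural list, had 264 to 450 in every goat.

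In mammals the miRNAs of this cluster are cut from long noncoding RNA made from the maternal chromosome, downstream of MEG3, and many hairpins therefore share 1 primary transcript. Mice that lack the cluster on the maternal chromosome have trouble keeping their blood glucose up around birth, when the placental supply ends. In sheep the callipyge mutation of the same region changes muscle and fat mass. DIO3, at the far end of the region, encodes the deiodinase that inactivates thyroid hormone.

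By name, 37 members matched a miRNA gene of the goat assembly ARS1.2, and 15 did not. The 35 genes matched share 1 chromosome. They sit in a stretch of 38 consecutive miRNA genes that opens with MIR379 and closes with MIR656. In that run, 3 genes had no member. The 7 proximal DLK1-DIO3 or miR-345 genes that could be matched all lay before the run. miR-541, which in humans is encoded near miR-409, and miR-1247, which in humans lies next to DIO3, found no goat gene of their name. Letters within a number may not correspond between the bovine names of the files and the goat genes.

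The cluster was a small part of the miRNA pool and 1 miRNA made up most of it. All 52 members together took 0.0995%, 0.0793%, 0.109%, 0.135% and 0.0896% of the miRNA reads in controls 1 to 5. In feed-deprived goats 1 to 6 they took 0.158%, 0.129%, 0.119%, 0.150%, 0.112% and 0.135%. The group means were 0.103% ± 0.0214 (SD, n = 5) and 0.134% ± 0.0177 (SD, n = 6), and the groups overlapped, since control 4 lay above 4 of the feed-deprived goats. miR-411a supplied 77.8% ± 3.36 of the members' reads in controls and 77.6% ± 4.29 after feed deprivation. Without it, the other members took 0.0225% ± 0.00430 and 0.0305% ± 0.00930 of the reads. Feed-deprived goats 1 and 4 stood highest there, at 0.0405% and 0.0437%, against 0.0221% to 0.0285% in the other 4 and 0.0164% to 0.0273% in controls. The share of goat 1 depends on its total, which leaves out the miRNAs its list lacks, miR-127 among them. In normalised reads the members without miR-411a summed to 6242 in goat 1 and 9764 in goat 4, against 3709 to 5839 in controls.

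**Figure D1:**
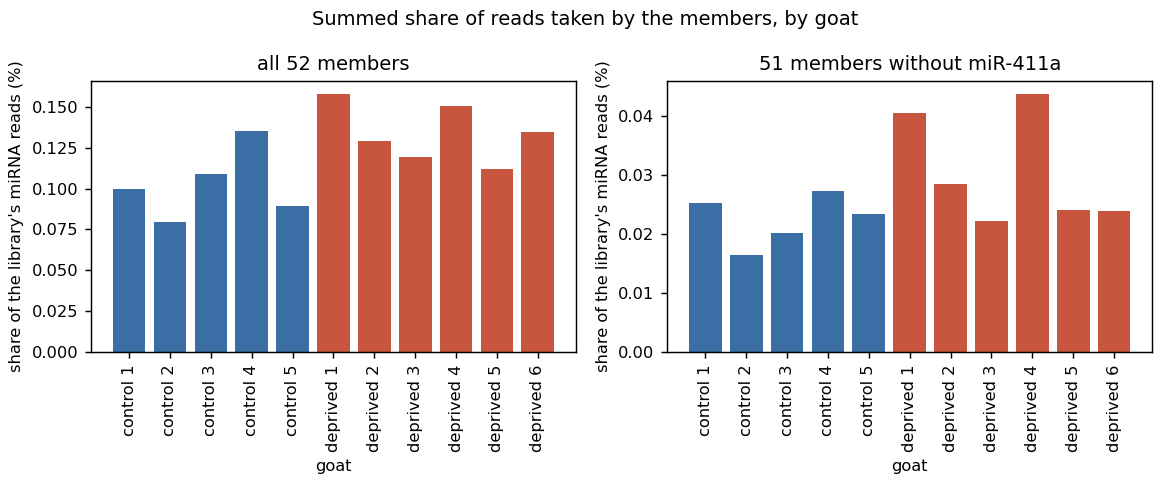
Share of each library's miRNA reads taken by the members, in percent, with 1 bar per goat, controls in blue and feed-deprived goats in red. The left panel sums all 52 members (0.0793% to 0.158%) and the right panel leaves out miR-411a (0.0164% to 0.0437%), where feed-deprived goats 1 and 4 are the tallest bars.

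One member, miR-541, rose after feed deprivation, and no member fell. Groups were compared by limma on log2(normalised reads + 1), two-sided, with Benjamini-Hochberg adjustment over all 360 tested miRNAs and a threshold of adjusted p under 0.05. Over all tested miRNAs 0.833% were called higher and 0% lower, and the 1 call among 29 members has to be read against that low background. At an unadjusted p under 0.05 stood 7 members, all with higher values and 0 with lower ones, or 24.1% of the 29, against 11.7% of the 360. edgeR on the recovered reads also called 1 member higher, with 0.833% called over all tested miRNAs. DESeq2 called 3, with 2.51% of its 358 tests called higher: miR-541, miR-543 and miR-1247-5p. Neither tool called a member lower.

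The direction of the members leaned one way more than that of all miRNAs did. Of the 29 tested members 25 had a positive log2 difference, or 86.2%, against 50.8% of the 360 tested miRNAs. Their median log2 difference was 0.32, against 0.0040 over all tested miRNAs, and they ran from -0.29 for miR-655 to 2.41 for miR-541. No test was made of the members as a list, which was chosen with earlier results of these data known. miRNAs that share a transcript are also not independent of each other. In bulk tissue a change in the number of cells of a type and a change in RNA per cell cannot be told apart.

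**Figure D2:**
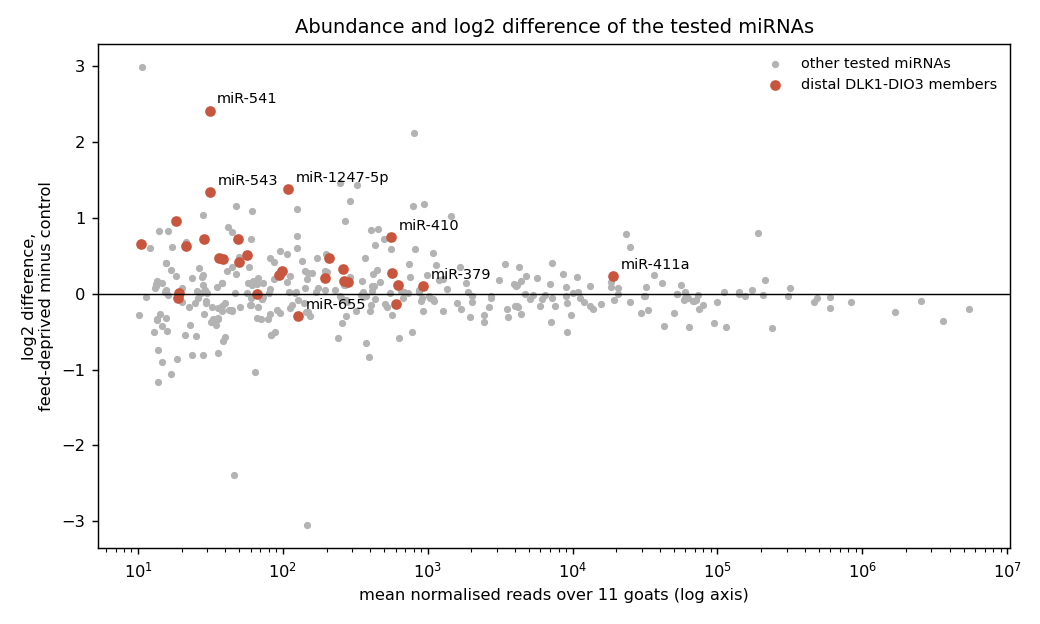
Mean normalised reads over 11 goats (log axis) against the log2 difference, feed-deprived minus control, for the 360 tested miRNAs, with the 29 tested members in red. Most members lie above 0, from -0.29 to 2.41, and miR-411a lies far to the right of the others at a mean of 19049 normalised reads.

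miR-541 had 11.5, 2.66, 5.61, 12.9 and 8.38 normalised reads in controls 1 to 5. In feed-deprived goats 1 to 6 it had 62.5, 19.3, 29.2, 109, 50.2 and 33.2. Every feed-deprived goat lay above every control, and goat 4 was the highest. Over all tested miRNAs 1.67% showed such a gap with feed-deprived goats above and 0% with feed-deprived goats below, and miR-541 was the only member that did. The means were 8.21 ± 4.20 (SD, n = 5) and 50.5 ± 32.4 (SD, n = 6), a log2 difference of 2.41 with a 95% interval of 1.43 to 3.40 (limma adjusted p = 0.0246). The call rests on few reads, with 2 to 12 per control library and 19 to 111 per feed-deprived library. It was lost when any 1 of controls 2, 3 or 5 or of feed-deprived goats 1, 4 or 5 was left out, although the log2 difference stayed at 2.12 or more. The limma adjusted p then reached 0.0800 at most.

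miR-543 came next, with 12.8, 16.0, 26.9, 8.62 and 18.4 normalised reads in controls. It had 67.4, 28.4, 33.4, 64.6, 22.6 and 48.0 in feed-deprived goats 1 to 6. All but goat 5 lay above every control. The log2 difference was 1.34 with an interval of 0.57 to 2.10 and did not pass in limma (adjusted p = 0.0934). DESeq2 called it (adjusted p = 0.0224), and so did limma when libraries were scaled by their totals alone (adjusted p = 0.0427), a scaling that moves the median of all miRNAs to 0.16.

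miR-1247-5p, the member at the DIO3 end of the region in humans, had 26.8, 34.6, 62.8, 99.2 and 59.5 normalised reads in controls. It had 164, 108, 109, 305, 175 and 57.6 in feed-deprived goats 1 to 6. Only goat 6 fell among the controls. Its log2 difference of 1.38 had an interval of 0.48 to 2.28 (limma adjusted p = 0.198, DESeq2 adjusted p = 0.0272). The other arm of the hairpin, miR-1247-3p, was too scarce to be tested, with 17 reads in all controls together and 42 in all feed-deprived goats, or 3.798 ± 1.88 and 6.60 ± 3.61 normalised reads.

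miR-410, which raises insulin release in a cultured mouse beta-cell line, had the smallest p among the 8 most abundant members. Controls 1 to 5 had 528, 317, 305, 447 and 397 normalised reads, and feed-deprived goats 842, 720, 556, 1107, 448 and 480. Goats 1 to 4 of the feed-deprived group lay above every control, whereas goats 5 and 6 lay within the control range. The means were 399 ± 93.1 and 692 ± 252, a log2 difference of 0.75 with an interval of 0.19 to 1.30 (limma adjusted p = 0.268).

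Both miR-487 members had higher values in most feed-deprived goats. miR-487b, whose seed is known to be changed by RNA editing in ischaemic mouse muscle, had 186, 168, 166, 198 and 141.6 normalised reads in controls. Feed-deprived goats 1 to 6 had 263, 216, 188, 288, 215 and 273. It was among the least variable members, and only feed-deprived goat 3 fell within the control range. Its log2 difference was 0.47 with an interval of 0.09 to 0.86 (limma adjusted p = 0.319). miR-487a was scarcer, at 8.97 to 14.0 normalised reads in controls and 10.8 to 43.1 after feed deprivation, where 5 of 6 goats lay above every control. Its log2 difference was 0.96 with an interval of 0.20 to 1.72 (limma adjusted p = 0.289).

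miR-495 was the last member at an unadjusted p under 0.05, with 15.1 to 52.8 normalised reads in controls and 35.5 to 77.7 after feed deprivation. Its log2 difference of 0.72 (limma adjusted p = 0.423) was 0.44 without control 4, the lowest goat. Both groups overlapped in miR-376e (8.93 to 29.1 against 16.7 to 41.1 normalised reads, log2 difference 0.63) and in miR-323b-3p (8.62 to 35.7 against 19.8 to 73.4, 0.73, and 0.48 without feed-deprived goat 4 or without control 4). miR-382 had an even control group, from 35.6 to 43.7 normalised reads. Of the feed-deprived goats 5 lay above all of it and goat 3 just below it, at 35.5, for a log2 difference of 0.41 with an interval of -0.08 to 0.90. miR-494 had 20.2 to 48.5 normalised reads in controls and 31.3 to 73.4 after feed deprivation, with a log2 difference of 0.46 that was 0.30 without feed-deprived goat 4. None of these 5 passed in limma, with adjusted p-values of 0.423 to 0.664.

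**Figure D3:**
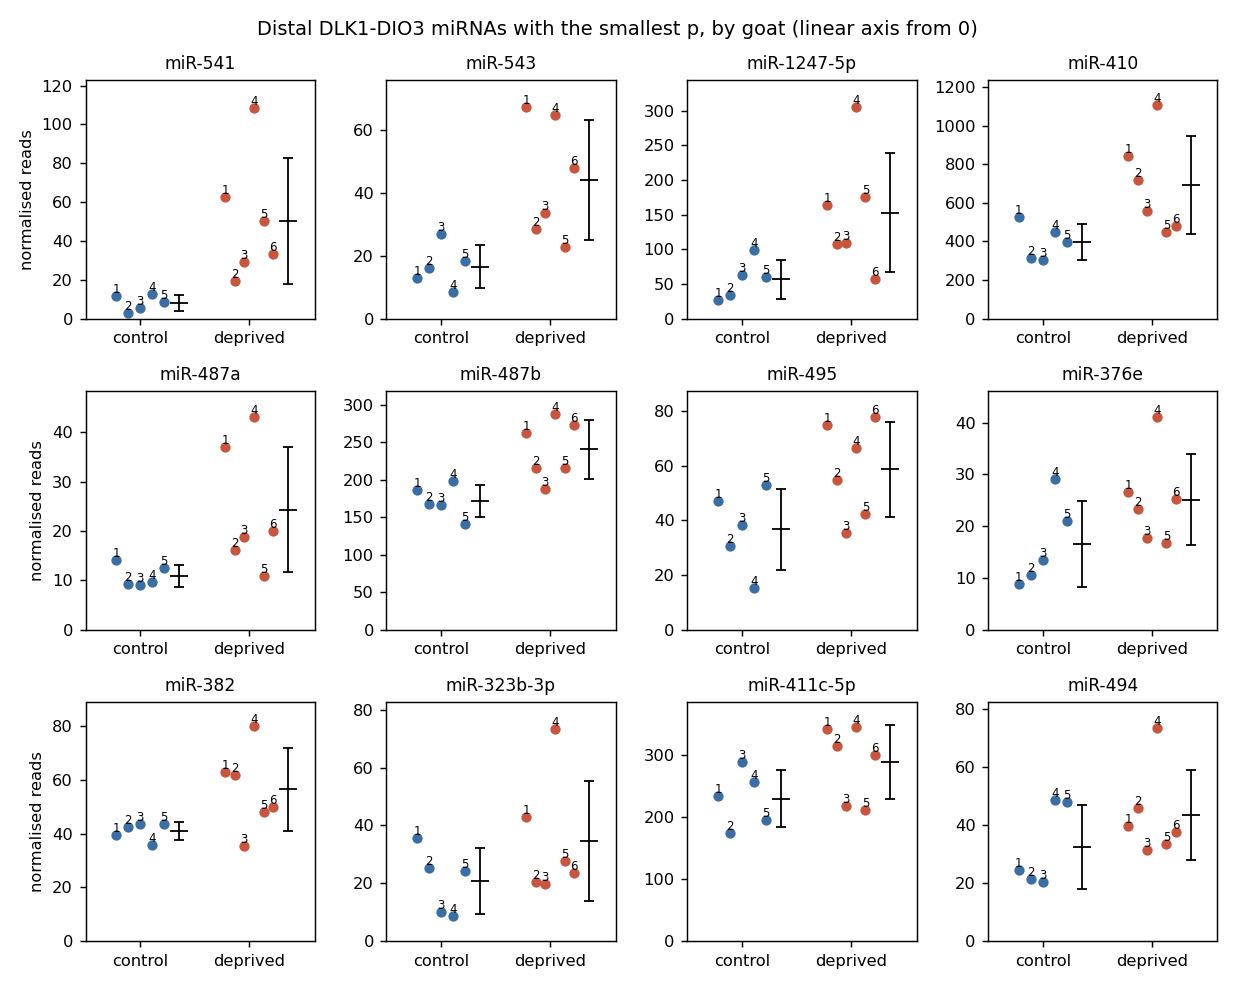
Normalised reads of the 12 members with the smallest p, on linear axes from 0, with 1 numbered point per goat (blue control, red feed-deprived) and the mean ± SD beside each group. miR-541 is the 1 panel in which the groups do not overlap (at most 12.9 in controls, at least 19.3 after feed deprivation), and goat 4 is often the highest red point.

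None of the other abundant members passed the test, and their groups overlapped. miR-411a had 16298, 14200, 21828, 23112 and 12558 normalised reads in controls. Feed-deprived goats had 18088, 18702, 19554, 23874, 17211 and 24112, a range that lay mostly inside that of controls. The log2 difference was 0.23 with an interval of -0.15 to 0.61 (limma adjusted p = 0.737), and was 0.12 without control 5. As a fold, that interval runs from 0.901 to 1.53.

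miR-379, which in mouse liver responds to glucocorticoid and alters lipoprotein release, was the second in abundance. It ranged from 493.6 to 1673 normalised reads in controls and from 651 to 2241 after feed deprivation. Feed-deprived goat 4 alone was above control 4, and the other 5 feed-deprived goats lay between 651 and 811. Its log2 difference was 0.09 with an interval of -0.71 to 0.90, and its sign turned without feed-deprived goat 4 (-0.18), control 2 (-0.05) or control 5 (-0.08), and no direction can be given. miR-380-3p was the steadiest member, at 492 to 711 normalised reads in controls and 566 to 787 after feed deprivation, with a log2 difference of 0.11 and an interval of -0.24 to 0.47. That difference was 0.046 without control 2 and 0.057 without feed-deprived goat 4. The other arm of that hairpin, miR-380-5p, known to restrain p53 in mice and humans, had 7 reads in all libraries together.

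miR-409a had 489 to 808 normalised reads in controls and 317 to 1199 after feed deprivation, where 2 goats lay above and 3 below all controls. Its log2 difference was -0.14 in limma, 0.0087 in DESeq2 and 0.0094 in edgeR. miR-154c had an even control group of 454 to 540 normalised reads. Feed-deprived goats 1, 2 and 4 exceeded it at 755, 713 and 900, and goat 5 lay below it at 436.7. The log2 difference was 0.28 with an interval of -0.18 to 0.74, and 0.16 without goat 4. miR-381 had 153 to 400 normalised reads in controls and 222 to 376.7 after feed deprivation, with a log2 difference of 0.16 that was -0.029 without control 2.

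A negative log2 difference in limma was seen in 4 tested members, none of which passed. One of them, miR-409a, had a slightly higher linear mean after feed deprivation, at 607 against 601. miR-655 had 123, 143.6, 99.8, 73.3 and 292 normalised reads in controls and 81.9, 94.3, 88.8, 77.3, 135 and 199.01 after feed deprivation. Control 5 was the highest goat, and without it the log2 difference of -0.29 was -0.0060. miR-299 had 13.3 to 30.6 normalised reads in controls and 10.4 to 23.5 after feed deprivation, a log2 difference of -0.06 with an interval of -0.71 to 0.59. The sign of miR-299 turned when control 1, control 3 or feed-deprived goat 3 was left out and with library totals. The others were miR-409a and miR-485, which in human cells represses BACE1 and had a log2 difference of -0.0098 with an interval of -0.57 to 0.55.

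The 9 tested members not yet described with values in each group had positive log2 differences of 0.02 to 0.66. miR-758, which in human cells represses the cholesterol exporter ABCA1, had 22.4 to 34.5 normalised reads in controls and 19.2 to 74.0 after feed deprivation, a log2 difference of 0.47. miR-376b, whose human and mouse relatives of the miR-376 group are edited in the seed, had a log2 difference of 0.51. Its control 2 was low, at 10.6 normalised reads, where the other controls had 50.5 to 75.4. miR-134, which limits dendritic spine size in rat neurons through Limk1, was at 0 to 19.1 normalised reads in controls and 2.09 to 36.2 after feed deprivation. Its log2 difference of 0.66 had an interval of -1.07 to 2.39, the widest among the members. The rest were miR-154b (0.25), miR-1185 (0.02), both arms of miR-369 and both arms of miR-411c. The linear mean of miR-1185 was slightly lower after feed deprivation, at 18.9 against 19.5.

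Both arms of a hairpin passed the filter for 2 members, and neither ratio of arms passed the test. miR-369-3p, which in human cells raises translation of TNF mRNA when growth stops, had a log2 difference of 0.20, which was 0.031 without control 2, 0.089 without feed-deprived goat 4 and 0.11 without feed-deprived goat 6. miR-369-5p had 0.30. The log2 ratio of the 3p to the 5p arm was 1.01 ± 0.296 in controls and 0.914 ± 0.411 after feed deprivation, a difference of -0.10 with an interval of -0.60 to 0.40. miR-411c-3p had 101 to 492.5 normalised reads in controls and 153 to 574 after feed deprivation, a log2 difference of 0.16 whose sign turned without control 2, control 4 or feed-deprived goat 4. miR-411c-5p had 174 to 288 and 210 to 345.4, a log2 difference of 0.32, with 4 of 6 feed-deprived goats above every control. Its arm ratio differed by -0.16 with an interval of -1.06 to 0.74 and ran from -1.33 to 1.07 among controls alone. Over all 29 hairpins with both arms tested, limma called 0% at an adjusted p under 0.05, with 1 at an unadjusted p under 0.05, and both members had an adjusted p of 0.947.

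In gene order, values above and below the members' median of 0.32 came in stretches. This grouping was seen in the values and has no test. Abundance also differed along the run and was not separated from position. Mean signals were 932, 19049 and 626 normalised reads in the first 3 genes and 21.3 to 56.3 in the next 6 tested members. Members at 500 or more had a median log2 difference of 0.17, those at 50 to 500 had 0.25 and those under 50 had 0.65. Over all tested miRNAs these medians were -0.032, 0.074 and 0.0091. miR-379, miR-411a and miR-380-3p, the first 3 genes of the run, had log2 differences of 0.09 to 0.23. The next 6 tested members, miR-758, miR-494, miR-543, miR-495, miR-376e and miR-376b, had 0.46 to 1.34. After them came miR-1185 and miR-381 at 0.02 and 0.16, then miR-487b at 0.47 and miR-655 at -0.29. miR-487a, miR-382 and miR-134 had 0.41 to 0.96, and the next 5, miR-485, miR-154b, miR-409a, miR-369-3p and miR-369-5p, had -0.14 to 0.30. miR-410 and miR-323b-3p, the last tested members of the run, had 0.75 and 0.73. Neighbours could differ: miR-655 at -0.29 lies between miR-487b at 0.47 and miR-487a at 0.96, with overlapping intervals for miR-655 and each of them.

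**Figure D4:**
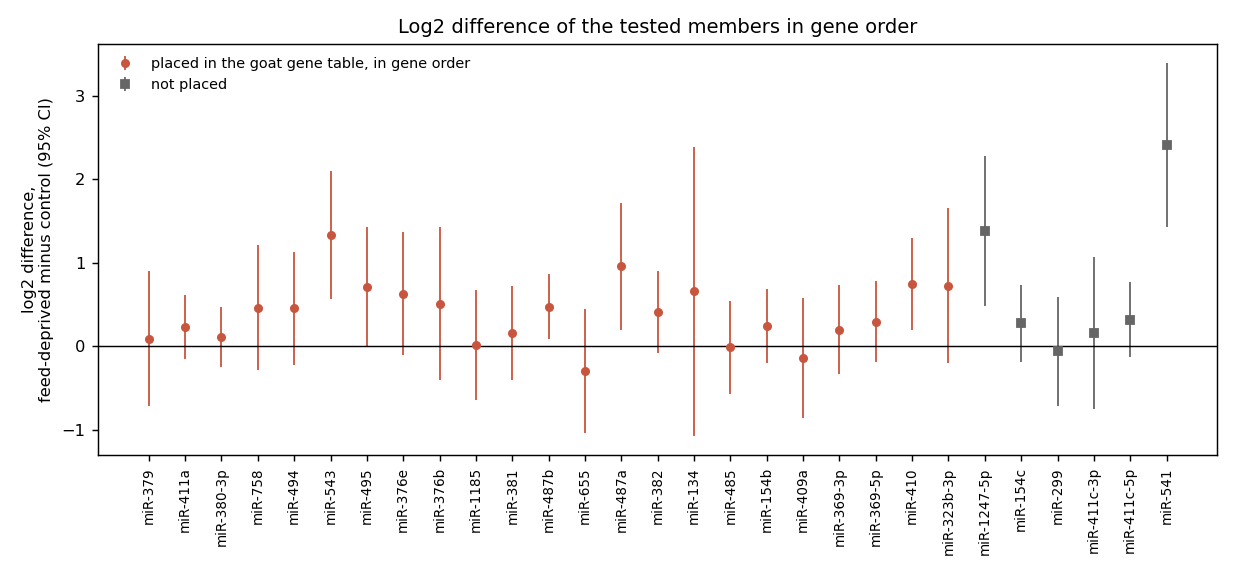
Log2 difference, feed-deprived minus control, with 95% intervals, for the 23 tested members placed in goat gene order from miR-379 to miR-323b-3p (red) and the 6 tested members without a goat gene of their name (grey). Intervals that lie wholly above 0 are those of miR-543, miR-495, miR-487b, miR-487a, miR-410, miR-1247-5p and miR-541.

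Goats of 1 group differed among themselves in the whole set of members. As a summary, the log2 value of each tested member was set against the mean of the group means, and the median over the 29 members was taken in each goat. Controls 1 to 5 stood at -0.03, -0.53, -0.15, -0.0047 and -0.19. Feed-deprived goats 1 to 6 stood at 0.41, 0.10, -0.19, 0.75, -0.13 and 0.20. Goats 3 and 5 of the feed-deprived group thus lay within the control range, whereas the same median over all 360 tested miRNAs stayed between -0.05 and 0.03 in every goat.

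Feed-deprived goat 4 had the highest value of all 11 goats in 20 of the 29 tested members, and control 2 the lowest in 9. The number of members above the highest control was 14, 11, 5, 24, 4 and 10 in feed-deprived goats 1 to 6. None of these counts was made over all tested miRNAs. Whether these goats were extreme in the members more than elsewhere was therefore not tested. Without feed-deprived goat 4 the count of positive members was 22 of 29 and their median 0.26. Without goats 1 and 4 together, a choice made after seeing the values, it was again 22 of 29, with a median of 0.15 and 0 members called. Without control 2 it was 21 of 29 with a median of 0.23. Over all 360 tested miRNAs the positive share was 53.6% without goat 4, 53.3% without goats 1 and 4, and 48.3% without control 2. The pooled SD within groups had a median of 0.52 over the members, on the log2 scale, against 0.43 over all tested miRNAs.

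**Figure D5:**
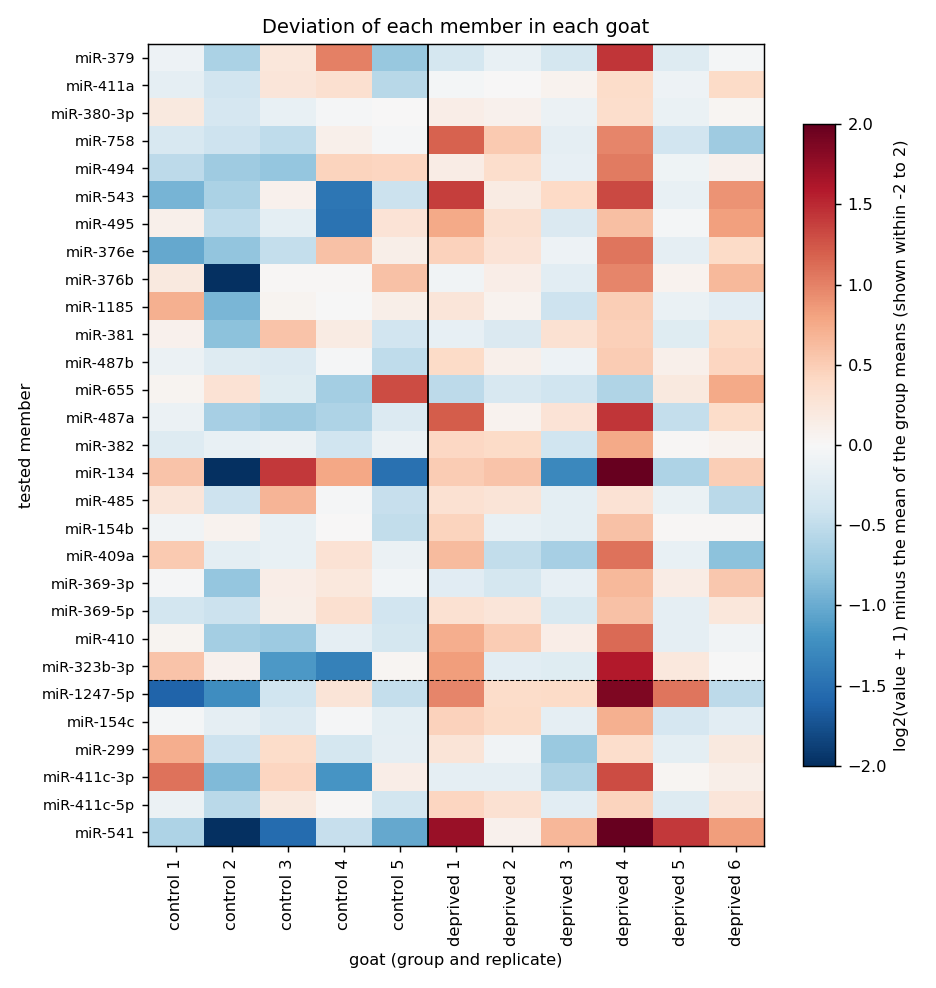
Log2(normalised reads + 1) of each tested member in each goat, minus the mean of the group means, in gene order from the top with the 6 unplaced members below the dashed line. Red squares fill the column of feed-deprived goat 4 (median 0.75) and many of goat 1 (0.41), and blue squares that of control 2 (-0.53).

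Proximal miRNAs of the same region, encoded nearer to DLK1, had their extremes in some of the same goats. The 7 tested ones, miR-136, miR-370, miR-431, miR-432, miR-433, miR-493 and miR-665, all had positive log2 differences, with a median of 0.82, and 1 of them, miR-431, was called. Their median in each goat was 0.08, -1.54, -0.28, -0.28 and -0.65 in controls and 0.38, 0.23, 0.18, 1.30, 0.61 and 0.64 in feed-deprived goats. Control 2 was the lowest and feed-deprived goat 4 the highest, as for the distal members, but feed-deprived goats 3 and 5, where the distal members lay within the control range, were above every control here. miR-127, the most abundant proximal miRNA, was not tested because the list of feed-deprived goat 1 lacked it. It had 72678 to 116670 normalised reads in controls and 76521 to 145190 in the other 5 feed-deprived goats, and the groups overlapped. miR-431 had at most 2.55 normalised reads in controls and 6.98 to 41.9 after feed deprivation. miR-665 had 54.5 to 170 and 207 to 673. miR-345, on the same list but encoded before DLK1 in the goat, is left out of these counts, and its tested arm, miR-345-5p, had -0.21.

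Leukocyte miRNAs and depth also differed among these goats, and their part in the members' values was not tested. All 9 leukocyte miRNAs, among them miR-142-5p and miR-223, were tested, had positive log2 differences, and 1 was called. They summed to 51904 to 77262 normalised reads in controls and 66271 to 100860 after feed deprivation, and none was at 0. Feed-deprived goats 1 to 6 had 82084, 66271, 66304, 91372, 85068 and 100860, beside member medians of 0.41, 0.10, -0.19, 0.75, -0.13 and 0.20. Depth was lowest in control 2, at 16974441 reads, and highest in feed-deprived goat 1, at 25389788. Red cell miRNAs, 3 of 3 with positive log2 differences and 0 called, summed to 116340 to 331500 and 131840 to 348040. The endothelial list had 0 of 3, the mesenchymal list 0 of 7 and the list of miRNAs typical of fat 0 of 5 with positive values, and 0 called. The last had a median log2 difference of -0.11 and summed to 8688500 to 12895000 in controls and 6408700 to 11241000 after feed deprivation. Of the muscle list, miR-133a had 3127 in feed-deprived goat 4, the highest of its group, and 710 to 4268 in controls. miR-1 in goat 4, at 180, was the highest of all goats, with at most 114 in controls. miR-206 in goat 4, at 16.6, was the highest of the feed-deprived group but within the control range. miR-133b in goat 4, at 41.1, lay below goat 2 at 43.6. miR-499 in goat 4, at 58.7, was the lowest of the feed-deprived group.

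The 23 members left untested held 1 to 86 reads each over all 11 libraries. The most read were miR-323, with 29 reads in all controls and 57 in all feed-deprived goats, and miR-3957, with 17 and 61, of which 31 came from feed-deprived goat 4. miR-668-3p had 23 and 41, and miR-496 25 and 34. Mean normalised reads were 6.52 ± 3.44 and 8.02 ± 3.43 for miR-323, 3.76 ± 2.20 and 9.07 ± 10.7 for miR-3957, 5.25 ± 3.08 and 5.96 ± 1.76 for miR-668-3p, and 5.70 ± 2.99 and 4.83 ± 1.36 for miR-496. Counting error is large beside such counts, and whether any of the 23 changed was not tested. The mean was higher after feed deprivation in 19 of them and lower in 4, a count without a background from other untested miRNAs. miR-329a and miR-1193 had 0 reads in controls, which allows up to 3 reads over the group, or 0.0304 RPM, and 1 and 3 reads after feed deprivation. Other scarce members were miR-377, miR-1197, miR-539, miR-412, miR-154a, miR-411b, miR-376a, miR-376c and miR-376d.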

How the data were processed

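Per the labels' protocols, small RNA libraries were made with 13 cycles of PCR, cut from a gel at 140 to 160 nt and read for 50 bases. The authors deposited 1 normalised signal value per mature miRNA and library, under bovine names (prefix left out here). In every library 100% of non-zero values were whole multiples of the smallest (tolerance 0.001), so whole reads were recovered. Trimming, aligner, genome build and the way values were scaled were not given in the sources used here. Reads carry no molecular identifier that the labels mention, and intervals on counts cover counting error only. Goat sequences that differ from bovine ones may be undercounted, and near-identical members (miR-376, miR-411, miR-154 and miR-487 letters) may share reads. Among 464 names with 20 reads or more, 8 had values equal to another name in every library, 0 of them members.

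Of 629 miRNAs present in every list, 360 passed edgeR's filterByExpr (minimum count 10). log2(signal + 1) was compared with limma, with variance trend and robust moderation. edgeR's quasi-likelihood test on the recovered reads called 3 of the 360. P-values set the difference between groups against the spread among goats within groups. Arm ratios were fitted by limma over all hairpins with both arms tested. R 4.3.3, limma 3.58.1, edgeR 4.0.16 and DESeq2 1.42.0 were used, and the scripts were tested on simulated data. Alternatives were other pseudocounts, scalings, filters and tools, and leaving out each goat. Members, lists and tests were chosen with earlier results of these data known. The members named were those called, the 12 with the smallest p, the 8 most abundant, the 3 most negative, both arms where tested, and up to 5 untested; others named were chosen after their values were seen. The proximal list as fixed held miR-345, set aside after its gene position was read. The marker lists whose log2 differences are not described above had 2 of 4 (muscle), 3 of 4 (epithelial) and 1 of 1 (neural) tested miRNAs with positive values, and 0 called.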

Additional observations from a re-analysis of the deposited data

Results flagged for a closer look

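Among 48 sets of values, 1 for each named tested member or the summed share in each group, 3 held an extreme value set well apart from its group, where chance alone gives about 1 in 20, or 2.4 of 48. The count is close to that, but the sets share goats and are not independent. How far such a count strays by chance is therefore not known, and no conclusion is drawn from it. All 3 were feed-deprived goat 4. It had 73.4 normalised reads of miR-494 against 31.3 to 45.7 in the other feed-deprived goats. It had 2241 of miR-379 against 651 to 811, and 574 of miR-411c-3p against 153 to 250.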

How the results depend on the processing

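The number of members called higher was 1, as reported, with pseudocounts of 0.5 or 4, TMM or upper-quartile factors, no filter, no variance trend and edgeR. It was 2 with library totals, where 7 of all 360 miRNAs were called higher, and 3 in DESeq2, of 9 in all. It was 0 at a mean of 10 CPM or more, a filter that removes miR-541 and under which 0 of 190 miRNAs were called, 0 without feed-deprived goats 1 and 4, where 0 of 360 were called, and 0 to 1 when 1 goat was left out. No setting run called a member lower or a changed arm ratio in a member. miR-541 kept a log2 difference of 1.95 to 2.61 over these settings and 2.12 to 2.64 without 1 goat (limma adjusted p = 0.00983 to 0.0800). Without goats 1 and 4 it was 1.95 and did not pass (limma adjusted p = 0.164).

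Positive members numbered 21 to 27 of 29 when 1 goat was left out and 24 of 29 with upper-quartile factors. They numbered 45 of 52 with no filter, 9 of 10 at a mean of 10 CPM or more, and 28 of 29 with library totals. Of all miRNAs, 46.4% to 53.6% were positive when 1 goat was left out and 44.2% with upper-quartile factors. The share was 52.3% with no filter, 46.3% at a mean of 10 CPM or more, and 73.6% with library totals. Signs turned, without a call, in miR-299 (0.091 with library totals, -0.17 to 0.11 without 1 goat), miR-409a (0.024 with library totals, 0.0094 in edgeR, 0.0087 in DESeq2, -0.37 to 0.012 without 1 goat), miR-379 (-0.15 without goats 1 and 4, -0.18 to 0.36 without 1 goat), miR-411c-3p (-0.076 and -0.11 to 0.46) and miR-381 (-0.029 to 0.32 without 1 goat). Only the members named by rule were followed through all settings. Outside them, miR-1185 turned from 0.015 in limma to -0.043 in edgeR and -0.047 in DESeq2. The cause was not tested.

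With the 10 most abundant miRNAs left out of the total, the summed share was 0.545% in controls and 0.654% after feed deprivation. Feed-deprived goat 1 then had 0.600%, below controls 3 and 4 at 0.622% and 0.711%, and goat 4 had 0.807%. Over the full total and without 1 goat, the group means were 0.0943% to 0.108% and 0.129% to 0.138%. Depth limits the members under 50 normalised reads most. Their median log2 interval reached 0.74 either side, against 0.51 for members at 500 or more.

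No paired analysis was possible because the replicate numbers follow accession order and pair no goats.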
